A study of Mus musculus with 2 samples.

Results

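The microRNAs that heart and skeletal muscle are known for were measured in the embryonic mouse liver. The set comprised 9 genes taken by symbol, Mir1a-1, Mir1a-2, Mir133a-1, Mir133a-2, Mir133b, Mir206, Mir208a, Mir208b and Mir499, out of 1973 microRNA genes in the count tables. The rule itself used no measured value, though the members were chosen with earlier results of these data known. Of the 9, 8 had a row in the tables by their Ensembl gene identifier. The samples were livers of B6NCrl mouse embryos of both sexes at embryonic day 11.5, pooled before sequencing, with no treatment or altered gene stated. RNA under 30 nucleotides was sequenced from 2 pools, labelled biological replicates 1 and 2; the first held livers of 109 embryos and the size of the second was not stated. Both libraries belonged to a single group, so the comparisons below are between genes and between the pools. Both pools cite the same donor strain record, and how far the pools were independent beyond their labels was not stated.

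MicroRNAs are short RNAs cut from hairpin precursors that repress messenger RNAs by pairing through their seed, bases 2 to 8 of the mature strand. Those of striated muscle fall into a few families. miR-1 and miR-133 are made together from shared transcripts in heart and skeletal muscle under the muscle transcription factors, and miR-206 with miR-133b form the related pair of skeletal muscle. miR-208a, miR-208b and miR-499 sit inside myosin heavy chain genes and act on the balance of fast and slow myosins. In the early embryo the heart lies directly in front of the liver, which grows into the septum transversum.

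The mature strands below are those the results turn on, from RefSeq on GRCm38.p6, with the seed in capitals and each written 5′ to 3′. They show that the 2 members of the miR-208 family are alike yet can be told apart, and that miR-499 nearly shares their seed. The strands of Mir133a-1, Mir133a-2 and Mir1a-2, the copies of Mir133b and Mir1a-1, had no entry and are not printed. The table held entries for 6 of the 9 genes.
mmu-miR-208a-3p: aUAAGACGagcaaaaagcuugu
mmu-miR-208b-3p: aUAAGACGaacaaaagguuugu
mmu-miR-499-5p: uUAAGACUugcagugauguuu
mmu-miR-206-3p: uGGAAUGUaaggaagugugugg
mmu-miR-133b-3p: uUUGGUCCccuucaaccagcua
mmu-miR-206-5p: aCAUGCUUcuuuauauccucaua
mmu-miR-1a-1-5p: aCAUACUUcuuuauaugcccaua

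Counted from the 5′ end, miR-208a-3p and miR-208b-3p were identical at 19 of 22 positions, and the substitutions from the first to the second were G10A, A16G and C18U. Their seed was the same at all 7 bases. The seed of miR-499-5p matched it at 6 of 7 bases, with the substitution G8U from miR-208a-3p. Among the 1738 mature sequences in the table, no sequence other than this pair carried the seed UAAGACG. The first 10 bases of miR-206-3p, seed included, also lay in other precursors, which included those of Mir1a-1, Gm27428 and Mir1957b. This is not a full list of such precursors. Its seed was also that of miR-6349 and miR-6382 in the table; miR-206 is known as a member of the miR-1 seed family. miR-206-5p and miR-1a-1-5p differed at 3 of 23 positions, G5A, C17G and U19C.

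Of the 8 genes with a row, 5 reached the detection minimum of 10 counts in each library and 3 had 0 counts in both. Among all 1973 genes 17.6% were detected by the same rule. Levels are given as CPM, counts on the strand of the gene per 1000000 counts assigned to microRNA genes on that strand. RNA under 30 nucleotides was sequenced, so the counts were taken to be of mature strands and were not divided by length. Which part of each hairpin gave the reads cannot be told from counts per gene. The 8 genes together held 2956 counts, or 0.0884% of assigned counts, in replicate 1 (95% exact Clopper-Pearson interval 0.0852 to 0.0916) and 1263 counts, or 0.0797%, in replicate 2 (0.0754 to 0.0842). The mean was 0.0840 ± 0.00613% (SD, n = 2). Only reads placed at a single gene were counted, so reads of members with copies can be missing from this share. The libraries held 3344673 and 1584499 assigned counts, from 12750572 and 5471247 reads. No source describes molecular identifiers, so the intervals and limits account for counting error alone. The hepatocyte marker Mir122, the leading microRNA of liver, had 30680 and 34490 CPM in replicates 1 and 2, so both libraries carried the marker of the labelled tissue.

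**Figure D1:**
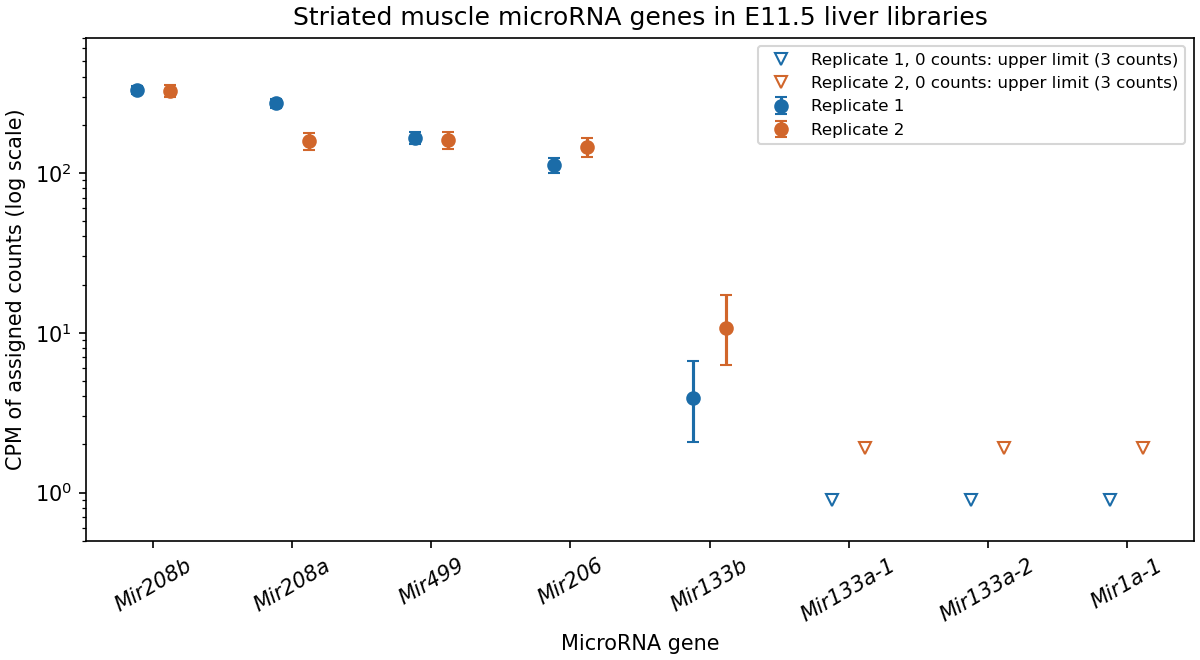
CPM of assigned counts (log scale) of the 8 counted striated muscle genes in replicate 1 (blue) and replicate 2 (orange), with exact 95% Poisson intervals; open triangles are the upper limits for genes with 0 counts. The myosin-hosted genes and Mir206 lie between 111.5 and 330.7 CPM, Mir133b lies far lower, and Mir1a-1, Mir133a-1 and Mir133a-2 have 0 counts.

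The myosin-hosted genes led among reads placed at a single gene. Mir208b (ENSMUSG00000077928.1), which is encoded with the slow and fetal ventricular myosin Myh7, had 1106 counts or 330.7 CPM in replicate 1 and 514 counts or 324.4 CPM in replicate 2. Its mean was 328 ± 4.44 CPM (SD, n = 2), and its Poisson intervals in the 2 libraries, 311.5 to 350.8 and 297 to 353.7 CPM, overlapped. It had the most counts of the 8 counted genes in both libraries, among reads placed at a single gene, and ranked 164 and 162 among all counted genes. The gene lies on chromosome 14 of mm10 at 54975700 to 54975776, on the minus strand, in intron 31 of Myh7, an intron of 461 bases.

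Mir208a (ENSMUSG00000065432.1), which is encoded with the atrial and adult cardiac myosin Myh6, had 909 counts or 271.8 CPM in replicate 1 and 249 counts or 157.2 CPM in replicate 2. Its mean was 214 ± 81.1 CPM (SD, n = 2), and its intervals, 254.4 to 290.03 and 138.2 to 177.9 CPM, did not overlap. It had the largest SD of the set. The gene lies on chromosome 14 at 54949060 to 54949142, on the minus strand, in intron 29 of Myh6, an intron of 542 bases. The pair is 26.6 kb apart on the same strand, since Myh7 and Myh6 lie next to each other with 3756 bases between them.

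Within this pair, Mir208b made up 54.9% of the counts in replicate 1 (1106 of 2015, exact interval 52.7 to 57.1) and 67.4% in replicate 2 (514 of 763, 63.9 to 70.7). The mean share was 61.1 ± 8.82% (SD, n = 2). Mir208b thus had more counts than Mir208a in both libraries. The size of its lead differed between them (two-sided Fisher's exact test, p = 2.49e-09 for n = 2 libraries). That test knows read counting noise alone and compares 2 pools. Whether both genes' strands were captured equally well in sequencing was not tested. Mir208b was nearly equal in both libraries, and Mir208a was lower in replicate 2.

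**Figure D2:**
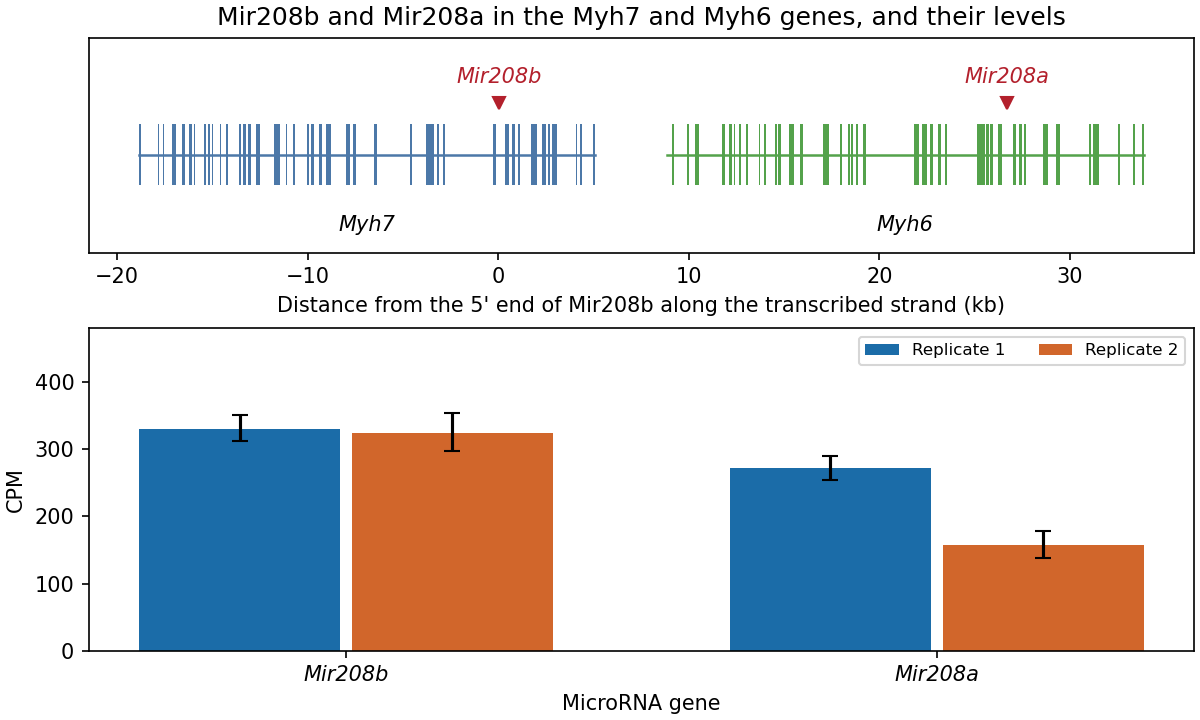
Top, exons of Myh7 and Myh6 along the transcribed strand, with the distance in kb from the 5′ end of Mir208b, and the places of both hairpins (red triangles). Bottom, CPM of Mir208b and Mir208a in replicate 1 (blue) and replicate 2 (orange) with exact 95% Poisson intervals: Mir208b is level at 330.7 and 324.4 CPM, Mir208a is 271.8 and 157.2 CPM.

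Mir499 (ENSMUSG00000076312.1), hosted by the slow-type myosin gene Myh7b, had 555 counts or 165.9 CPM in replicate 1 and 254 counts or 160.3 CPM in replicate 2. Its mean of 163 ± 3.98 CPM (SD, n = 2) had the smallest SD among the 5 detected genes, and the intervals overlapped. It lies on chromosome 2 at 155622880 to 155622958, on the plus strand, in intron 19 of Myh7b, an intron of 481 bases. The 3 myosin-hosted genes held 86.9% of the counts of the set in replicate 1 (exact interval 85.7 to 88.1) and 80.5% in replicate 2 (78.2 to 82.7). Both shares leave out any reads of miR-1 and miR-133 that matched several places, so they do not give the make-up of the whole set.

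Mir206 (ENSMUSG00000065559.1), known from skeletal muscle and its precursors, had 373 counts or 111.5 CPM in replicate 1 and 229 counts or 144.5 CPM in replicate 2. The mean was 128 ± 23.3 CPM (SD, n = 2), and the intervals, 100.5 to 123.4 and 126.4 to 164.5 CPM, did not overlap. It was therefore higher in replicate 2 beyond read counting noise, opposite to Mir208a. Mir206 held 12.6% of the counts of the set in replicate 1 (11.4 to 13.9) and 18.1% in replicate 2 (16.04 to 20.4). These shares, too, are of reads placed at a single gene. It lies on chromosome 1 at 20679010 to 20679082, on the plus strand, in an exon of Gm28653, a long intergenic noncoding RNA gene.

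Mir133b (ENSMUSG00000065480.1), the partner of Mir206 in skeletal muscle, had 13 counts or 3.89 CPM in replicate 1 and 17 counts or 10.7 CPM in replicate 2, with a mean of 7.31 ± 4.84 CPM (SD, n = 2). It lies 3686 bases downstream of Mir206, at 20682769 to 20682887 on the plus strand of chromosome 1, in an exon of the same noncoding RNA gene. Of the counts of Mir206 and Mir133b together, Mir133b held 3.37% in replicate 1 (exact interval 1.81 to 5.69) and 6.91% in replicate 2 (4.08 to 10.8). The first 21 of the 22 bases of miR-133b-3p, shown above, also lie in the precursors of Mir133a-1 and Mir133a-2, so a read of this strand must reach the last base to be placed at Mir133b alone. Reads that matched several places were not counted for any gene, so the low count of Mir133b is no measure of its level.

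**Figure D3:**
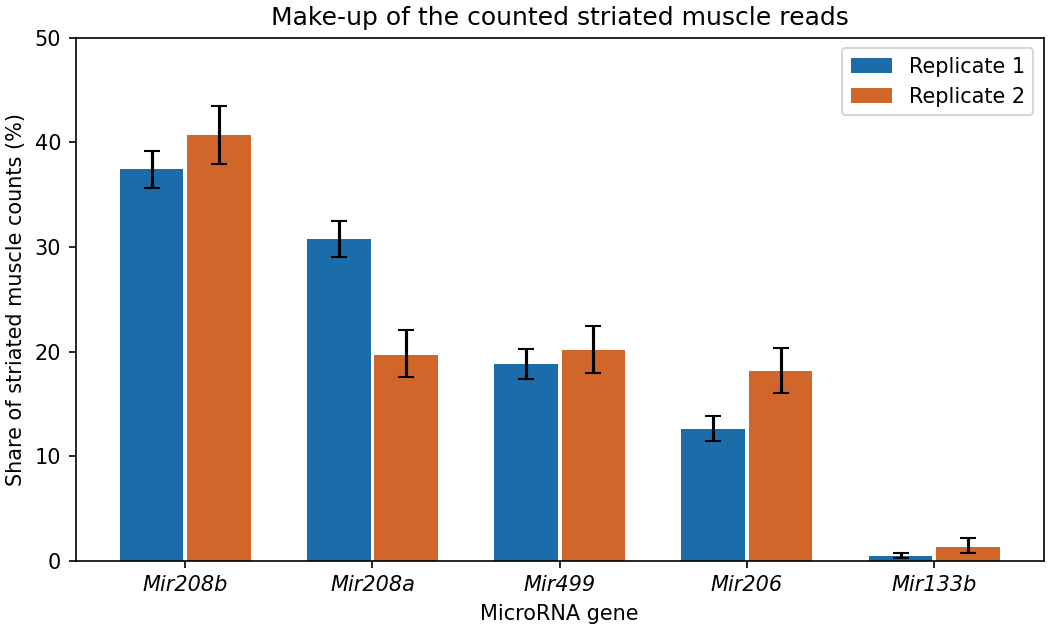
Share (%) of the counts of the 8 counted striated muscle genes held by each detected gene in replicate 1 (blue) and replicate 2 (orange), with exact 95% Clopper-Pearson intervals. Reads that matched several places, as those of miR-1 and miR-133 can, are left out. Mir208b holds the most counts in both libraries, Mir208a holds 30.8% in replicate 1 and 19.7% in replicate 2, and Mir133b holds 0.440 and 1.35%.

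The order of counted levels was partly resolved. In replicate 1 it ran Mir208b, Mir208a, Mir499, Mir206, Mir133b, and no neighbours in it had overlapping Poisson intervals. In replicate 2 Mir499 stood above Mir208a, at 160.3 against 157.2 CPM, and the intervals of Mir499 and Mir208a overlapped, as did those of Mir208a and Mir206. Among the 4 genes whose reads can be placed at a single precursor, Mir208b came first in both libraries, while the order of Mir208a against Mir499 turned. The place of Mir133b in this order is not resolved, because most of its mature 3p strand also matches other genes.

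The miR-1 and miR-133a genes, known as abundant microRNAs of mature striated muscle, gave 0 counts. Mir1a-1 (ENSMUSG00000070144.1, chromosome 2 at 180389048 to 180389124, plus strand) and Mir133a-2 (ENSMUSG00000065460.1, chromosome 2 at 180398379 to 180398482, plus strand) lie 9254 bases apart. Mir133a-1 and Mir1a-2 lie 2504 bases apart on chromosome 18, at 10782909 to 10782976 and 10785481 to 10785552. Both are on the minus strand in an intron of Mir133a-1hg and opposite to Mib1. Mir133a-1 was counted as ENSMUSG00000065399.1, while its place here is that of ENSMUSG00000065399.2 in GENCODE M21. A count of 0 allows up to 3 counts, or 0.897 CPM in replicate 1 and 1.89 CPM in replicate 2, for each of Mir1a-1, Mir133a-1 and Mir133a-2. This limit applies only to reads that could be placed at a single gene. The precursors of Mir133a-1 and Mir133a-2 shared an unbroken stretch of 31 bases, those of Mir1a-1 and Mir1a-2 one of 28 bases, and both lengths exceed a mature strand. Reads that mapped to several places numbered 2804637 in replicate 1 and 1234115 in replicate 2, 22.0% and 22.6% of all reads. How many of these came from miR-1 or miR-133a cannot be told from the deposited counts, so 0 counts here do not show absence.

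A part of Mir1a-1 could be told apart. The 5p strand miR-1a-1-5p, usually the minor strand, shared only its first 14 of 23 bases with the Mir1a-2 precursor and no stretch of 15 bases with any other microRNA precursor. The 0 counts of Mir1a-1 therefore put this strand at or below the limit of 0.897 and 1.89 CPM.

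Mir1a-2 (ENSMUSG00000106348.1 in GENCODE M21) had no row under that identifier. The gene lies wholly inside Mir1b, which was counted on the opposite strand. Reads opposite to Mir1b, which is the strand of Mir1a-2, numbered 3 in replicate 1 and 1 in replicate 2. The Mir1a-2 precursor shared 28 bases with that of Mir1a-1, and reads that matched both were counted for neither. These few reads are therefore no measure of the level of Mir1a-2. On its own strand Mir1b had 12 and 9 counts, or 3.59 and 5.68 CPM. The 8 counted members had 0 reads on the opposite strand in both libraries, so counting without regard to strand changed none of their counts.

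The members differed in how much sequence they share with copies. The longest stretch that the Mir206, Mir208a, Mir208b and Mir499 precursors shared with another counted precursor was 13 or 14 bases. Mir1a-1, Mir1a-2 and the 3 miR-133 genes each shared at least 20 bases with 1 or 2 counted genes. All 4 genes without such a stretch were detected, at 128 CPM or more on average. Of the 4 counted genes with one, Mir133b alone had counts. The search covered annotated microRNA precursors and not the whole genome.

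Each gene was then compared between the pools by an exact two-sided binomial test given the effective library sizes, with Benjamini-Hochberg adjustment over 454 genes with at least 10 summed counts. Calls needed an adjusted p under 0.05 together with a difference of 2-fold or more. Over all tested genes 33 were called (7.27%), and 223 (49.1%) had an adjusted p under 0.05 at any fold. Of the 5 members tested, 1 was called and 3 had an adjusted p under 0.05. These counts over 5 genes are a description and set the members apart from no other genes.

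Mir133b was the member called, with a log2 ratio of replicate 2 over replicate 1 of 1.51 (adjusted p = 0.0114 by the binomial test with Benjamini-Hochberg adjustment). It rested on 13 and 17 counts, and the call was lost with edgeR's exact test at an assumed biological coefficient of variation of 0.2 (adjusted p = 0.405). Mir206 was higher in replicate 2 by a log2 ratio of 0.44 (binomial test with Benjamini-Hochberg adjustment, adjusted p = 0.00111; edgeR's exact test, adjusted p = 0.793). Mir208a was lower in replicate 2, with a log2 ratio of -0.73 (binomial test, adjusted p = 7.93e-13; edgeR's exact test, adjusted p = 0.535). The log2 ratio of Mir208b was 0.03 (adjusted p = 0.768) and that of Mir499 was 0.01 (adjusted p = 0.962), both by the binomial test, and both turned negative when total counts replaced TMM scaling. The median absolute log2 ratio was 0.44 over the 5 members and 0.42 over all tested genes. edgeR estimated a common biological coefficient of variation of 0.260 between the pools over all tested genes. This is more spread than the binomial test assumes, and more than the 0.2 assumed for edgeR's exact test.

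**Figure D4:**
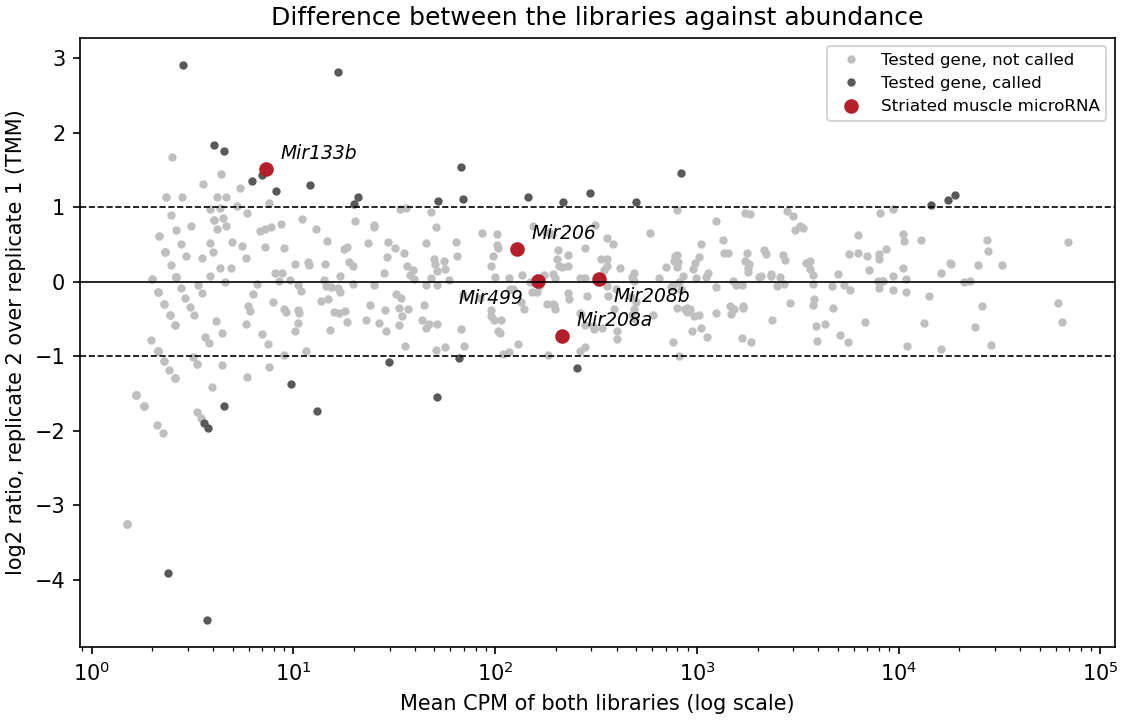
Log2 ratio of replicate 2 over replicate 1 (TMM scaling) against mean CPM (log scale) for the 454 tested genes: grey, not called; dark grey, called; red, the 5 tested striated muscle genes. Dashed lines mark 2-fold. Mir133b at 1.51 is the member beyond 2-fold, while Mir208b and Mir499 lie at 0.03 and 0.01.

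The counted reads of the striated muscle set were set beside those of other tissue markers. The shares and ratios below hold only for reads placed at a single gene, so they leave out any reads of miR-1 and miR-133 that matched several places. The smooth muscle pair Mir143 and Mir145a, which acts in vessel walls and mesenchyme, held 1.19% of assigned counts in replicate 1 and 2.41% in replicate 2. That is 13.5 and 30.2 times the counts of the striated muscle set, and the ratio differed between the libraries beyond read counting (two-sided Fisher's exact test, p = 1.68e-130 for n = 2 libraries). Mir143 was called higher in replicate 2, with 11470 and 23600 CPM, while Mir145a had 475.4 and 478.4 CPM. With edgeR's exact test 0 genes of this pair were called, and 1 had an unadjusted p under 0.05. Mir208b, at 328 CPM on average, lay below Mir145a, at 477 ± 2.12 CPM (SD, n = 2), in both libraries.

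The pancreatic list, which stands for another organ next to the liver, held 0.192% and 0.245% of counts, 2.17 and 3.08 times the striated muscle set. It was carried by the islet gene Mir375 at 2161 ± 381 CPM, and the next, Mir217 of the exocrine pancreas, had 20.9 and 15.2 CPM. Both Mir208a and Mir208b lay above Mir217 in both libraries. The hepatocyte list held 37.4 and 46.3 times the counts of the striated muscle set, and the erythroid pair Mir144 and Mir451a held 9.0 and 13.8 times. Mir122 carried the hepatocyte list, with 102610 of its 110531 counts in replicate 1 and 54644 of 58416 in replicate 2. All 4 ratios were higher in replicate 2. In whole livers, fewer cells of a type and less RNA per cell cannot be told apart, and which cells held the muscle microRNAs was not tested.

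**Figure D5:**
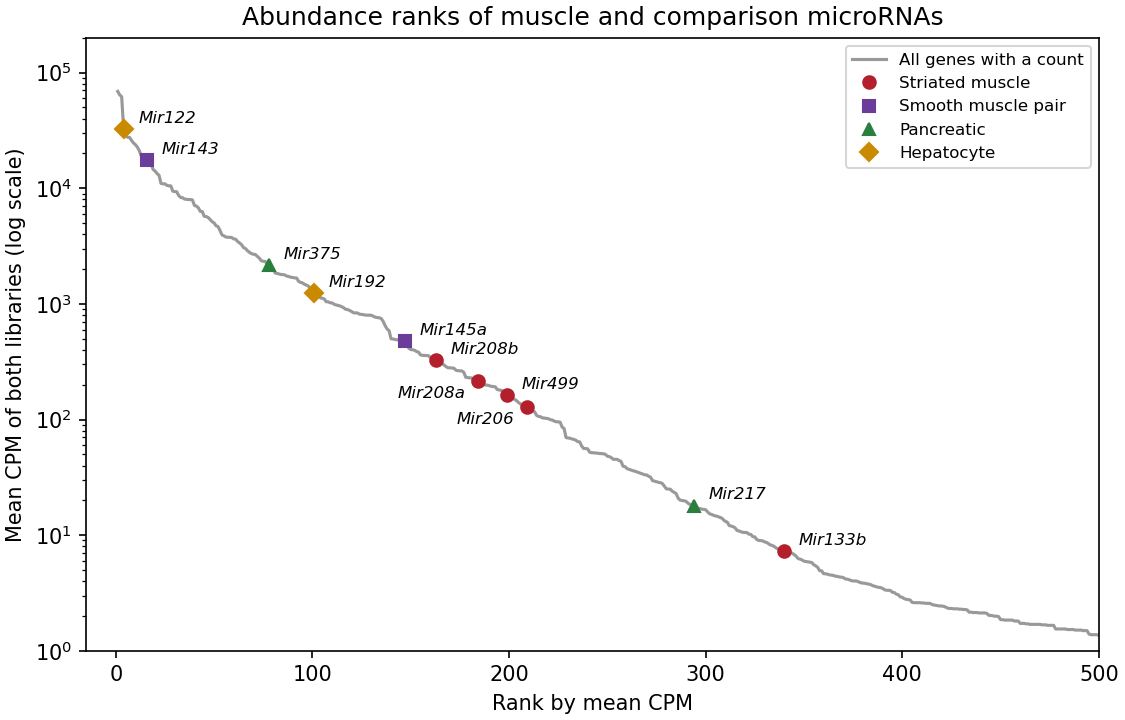
Mean CPM (log scale) against rank for all genes with a count, shown to rank 500, with the detected striated muscle genes (red circles), the smooth muscle pair (purple squares) and the leading pancreatic (green triangles) and hepatocyte (yellow diamonds) genes. Mir208b, Mir208a, Mir499 and Mir206 lie at ranks 163, 184, 199 and 209 by mean, below Mir145a and above Mir217.

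Other microRNAs known from heart or striated muscle, though also made elsewhere, were read from a list of 14 symbols. Of the 12 that were counted, 8 were detected, 10 were tested and 0 were called between the pools by the binomial test or by edgeR's exact test. Over all genes, 17.6% were detected, and 7.27% and 0.22% of the 454 tested were called by these tests. By the binomial test 6 of the 10 had an adjusted p under 0.05 at any fold, against 49.1% of the 454 tested genes. By edgeR's exact test 2 of the 10 had an unadjusted p under 0.05. The share of all genes at that unadjusted threshold is not given here. The list held 1.85% and 2.50% of counts, mostly from Mir23a at 12940 ± 3131 CPM and Mir22 at 7005 ± 960 CPM (SD, n = 2), which are made in many tissues. Mir133c had 0 counts in both libraries.

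By level, the genes nearest to Mir208b over both libraries, by distance on log2(CPM + 1), were Mir363 (332.8 and 355.9 CPM), Mir486 (371.9 and 343.3 CPM) and Mir125b-2 (307.7 and 362.9 CPM). Nearest to Mir208a were Mir222 (228.1 and 169.1 CPM), Mir505 (221.2 and 171.0 CPM) and Mir302c (216.8 and 169.1 CPM). With 2 libraries this likeness is one of level only. It holds for reads placed at a single gene, so reads of these genes that matched several places are left out.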

How the data were processed

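Small RNA from 2 pools of E11.5 liver was measured as read counts per microRNA gene. The deposited counts are whole numbers, not normalised, aligned to mm10 and counted with GENCODE M4, as the deposited descriptions state; the aligner, counter and trimming are not given in the sources used here. The counts give reads on either strand, the strand of the gene and the opposite strand, a layout read from the values. Summary classes that name no gene (73.8% and 71.0% of reads) stayed out of library sizes.

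CPM were computed here from same-strand counts. Symbols, hosts and precursors came from GENCODE M21 by identifier without version: 1894 of 1973 genes matched, and the 79 unmatched held 4 counts. Mature sequences came from RefSeq. With 1 group, edgeR's quasi-likelihood test had nothing to fit. The exact binomial test across all genes used TMM sizes (edgeR 4.0.16, R 4.3.3), with 0.5 added to counts for ratios. The 95% level and a limit of 3 counts for 0 were used throughout. P-values compare 2 pools, whose spread may be technical. The procedure was tested on simulated data with counting noise alone, which is less spread than edgeR estimated between these pools. DESeq2 1.42.0 size factors were an alternative. Python 3.11.15, numpy 2.4.6, scipy 1.17.1, pandas 2.3.3 and matplotlib 3.10.9 were used.

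The members and lists were chosen with earlier results of these data known. All members were named, up to 2 genes of each comparison list (more where a ratio or strand turned on them), and the 3 genes nearest in level to the 2 highest members. A search of the genome for copies was planned; precursors were searched instead.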

Additional observations from a re-analysis of the deposited data

Results flagged for a closer look

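Opposite-strand reads, which the CPM used here leave out, were above what a count of 0 allows at Mir486, a gene of erythroid cells and muscle in the list of other muscle microRNAs. They numbered 107 in replicate 1 and 61 in replicate 2, against 1244 and 544 on its own strand. The source of these reads was not tested.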

How the results depend on the processing

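No paired analysis was possible because both libraries form a single group. The share of assigned counts held by the striated muscle genes moved from 0.0840% to 0.0763% with counts without regard to strand and to 0.0902% with Mir126a, the gene of the highest mean CPM, left out of the denominator, both by construction, since the members' counts stayed the same. It was 0.0464% with the reads mapping to several places in the denominator. Leaving out a replicate gave 0.0797 to 0.0884%. The number of members detected was 5 under all alternatives run except a minimum of 30 counts, which gave 4. The share of Mir208b in its pair was 54.9 to 67.4% when a replicate was left out. The number of members called between the pools was 1 with TMM, total counts, DESeq2 size factors, no filter or counts without regard to strand. It was 0 with a minimum of 100 summed counts, where Mir133b was not tested, and 0 with edgeR's exact test at an assumed biological coefficient of variation of 0.2, which called 1 of all 454 genes (0.22%). Among the members Mir133b alone had an unadjusted p under 0.05 there (0.034). With total counts the log2 ratio turned from 0.035 to -0.027 for Mir208b and from 0.013 to -0.048 for Mir499; total counts moved the median of all genes from 0.01 to -0.05. Counts without regard to strand, added after seeing the data for CPM, lowered all 5 detected members by construction, since only the denominator changed. The mean CPM became 297.3 for Mir208b, 194.9 for Mir208a, 148.1 for Mir499, 116.2 for Mir206 and 6.62 for Mir133b. The call of Mir133b rests on 30 counts, and 18 in place of 20 shared bases left 5 members with copies.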
